A study of Homo sapiens with 36 samples.

Results

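HCT116 H2B-GFP 8/3 c7 is a line of HCT116 human colon carcinoma cells that carries 3 copies of chromosome 8 and a GFP-tagged histone H2B. It was compared with the near-diploid line it was made from, HCT116 H2B-GFP, by small RNA sequencing of 3 libraries each. The letter c marks a clone, so the trisomy is represented by the progeny of 1 cell that took up the chromosome by microcell-mediated transfer, and no treatment is labelled for either line. All 434 miRNAs listed in the table for this comparison are described here, of 443 listed over the 3 tables used. The question behind the comparison is how the gain of chromosome 8 alters the miRNA content of the cell. The table gives for each miRNA the mean normalised read count over its 6 libraries, trisomic and control together, and values of single libraries were not used here. No error, no depth per library and no test between the lines can therefore be given, and a mean may rest on any of its 6 libraries. To see beyond the pooled mean, it was set beside the means of 2 other tables that by the labels share the same 3 control libraries, those for HCT116 H2B-GFP 3/3 c11 with 3 copies of chromosome 3 and for HCT116 18/3 c2 with 3 copies of chromosome 18. HCT116 18/3 c2 carries no H2B-GFP, and its labels name the HCT116 H2B-GFP libraries as its control, whereas the study's own account groups it with untagged HCT116. If untagged HCT116 was its control, the trisomy 18 ratios compare tables with different controls, and every limit drawn here from the trisomy 18 table has no basis.

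A miRNA is a short RNA cut from a hairpin precursor by the enzymes Drosha and Dicer, and it guides Argonaute proteins to mRNAs that pair with its seed, bases 2 to 8. miRNAs with one seed form a family with overlapping targets. Some families named below, such as that of miR-10, miR-99, miR-100 and miR-125, hold several seeds. Many miRNAs are transcribed together from a cluster, and many lie inside an intron or exon of a host gene and are made from its transcript. An extra chromosome adds a further template for each such transcript, while processing and turnover also set the level of the mature miRNA. In colon epithelium, miR-192, miR-194, miR-215 and the miR-200 family are typical miRNAs, and miR-21 is widely known as an abundant miRNA of carcinomas.

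The sequences of the miRNAs that dominate the table, and of those whose means stand furthest from the other tables, are given here to show which of them share a seed and so which values belong together. They are mature sequences of RefSeq (GRCh38.p14), which held 354 of the 434, and capitals mark the seed. The most abundant miRNA has a seed of its own among the abundant ones:
miR-21-5p: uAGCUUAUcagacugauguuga
The next seed is shared by miR-100-5p, miR-99b-5p and miR-99a-5p, and the seed of miR-10a-5p differs from it at its end:
miR-100-5p: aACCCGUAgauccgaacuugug
miR-99b-5p: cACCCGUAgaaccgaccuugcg
miR-99a-5p: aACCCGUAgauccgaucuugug
miR-10a-5p: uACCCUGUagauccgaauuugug
The let-7 seed is shown with its 2 most abundant carriers:
let-7i-5p: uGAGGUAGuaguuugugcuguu
let-7a-5p: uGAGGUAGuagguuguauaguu
miR-30a-5p, lowest against both other tables among miRNAs with a mean of at least 100 in either table, shares its seed with miR-30e-5p and miR-30c-5p:
miR-30a-5p: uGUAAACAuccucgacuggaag
miR-30e-5p: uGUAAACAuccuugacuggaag
miR-30c-5p: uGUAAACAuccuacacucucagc
The miR-320 members are nearly one sequence, and miR-320c and miR-320d stood high against both other tables:
miR-320b: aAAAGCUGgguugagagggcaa
miR-320c: aAAAGCUGgguugagagggu
miR-320d: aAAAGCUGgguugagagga
Single miRNAs that stood high follow, with the pair miR-212-5p and miR-132-5p from one cluster:
miR-212-5p: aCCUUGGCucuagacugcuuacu
miR-132-5p: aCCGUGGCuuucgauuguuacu
miR-139-5p: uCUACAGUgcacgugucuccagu
miR-222-5p: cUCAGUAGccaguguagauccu
miR-4431: gCGACUCUgaaaacuagaaggu

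A few miRNAs made up nearly all of the summed mean of the listed miRNAs. miR-21-5p had a mean normalised read count of 3840734, which was 49.0% of the summed mean of 7839583. It lies in an exon of VMP1 (GRCh37, chr17:57918627-57918698, plus strand). miR-100-5p followed with 1610224.1 (20.5%), from an intron of MIR100HG on chromosome 11, so that the first 2 miRNAs held 69.5% of the summed mean. miR-7-5p, encoded by hairpins on chromosomes 9, 15 and 19, had a mean of 314438.7, and miR-10a-5p, in an intron of HOXB3, had 308614.3. The first 10 miRNAs together held 90.8%, the first 15 held 94.2% and the first 50 held 98.9%. Below them the table was long and thin, with a median mean of 28.1 and a lowest mean of 2.14. Of the 434 miRNAs, 293 had a mean of at least 10, 160 of at least 100 and 80 of at least 1000. Of the names, 278 end in 5p, 146 name no arm and 10 end in 3p, the highest of which had a mean of 593. For families whose main product is the 3p arm, among them miR-200, miR-29, miR-221 and miR-222, miR-23, miR-27 and miR-24, miR-25 and miR-92, the values here are those of the other arm, and the shares of such families are of the listed arms only. All other shares, those of the most abundant miRNAs included, are also of this list and not of all miRNA in the cells.

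**Figure D1:**
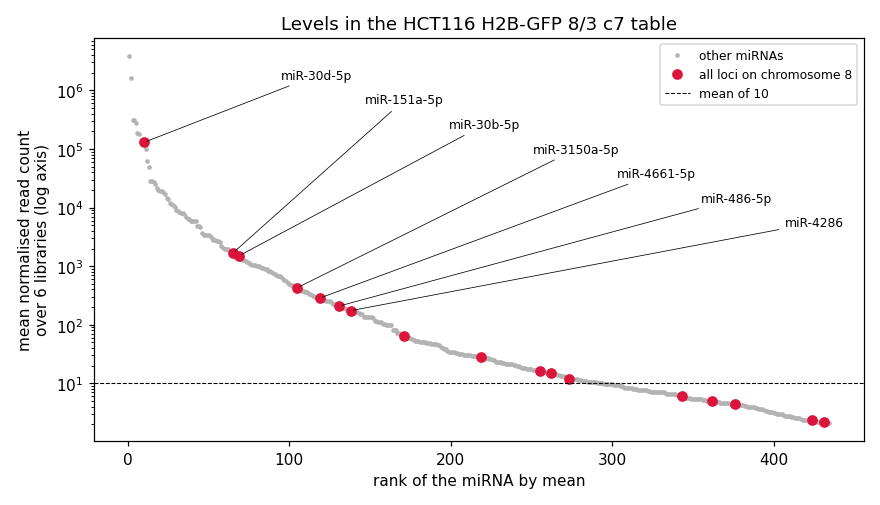
Mean normalised read count (log axis) of each of the 434 miRNAs in the trisomy 8 table against its rank, with the 17 miRNAs whose loci all lie on chromosome 8 as large points and the 7 of these above 100 named. miR-30d-5p stands at rank 10 and the other 16 lie at rank 65 or below.

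By family, the levels were as uneven as by single miRNA. The 7 listed members of the family of miR-10, miR-99, miR-100 and miR-125, whose genes lie in or near HOX clusters and in let-7 clusters, held 26.6% of the summed mean. The 9 members of let-7 and miR-98, which restrain growth-promoting mRNAs in many tissues, held 10.8%, led by let-7i-5p at 273915.5, let-7a-5p at 188083, let-7f-5p at 178375.6 and let-7g-5p, in an intron of WDR82 on chromosome 3, at 139337.8. The cluster of miR-183, miR-96 and miR-182 held 2.2%, with miR-183-5p at 133948.5. The miR-30 family held 2.16%, most of it miR-30d-5p from chromosome 8. The other miRNAs among the first 15 were miR-99b-5p at 98212.7, miR-26a-5p at 62232.2, miR-191-5p at 50091.6, miR-125b-5p at 28308.5 and miR-30e-5p at 27975.5. Well-known growth regulators stood lower, with 0.334% for the miR-17-92 cluster and its paralogs and 0.0338% for miR-34 and miR-449, of which miR-34 is induced by p53.

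Markers of cell types were looked up among the listed miRNAs. Only 10 names end in 3p, so markers read from that arm could hardly be listed. A short list for a cell type therefore says little about the origin of the cells. All 7 listed markers of colonic epithelium, 4 of them 5p arms of the miR-200 family, had a mean of at least 10, led by miR-200a-5p at 19419.8 and miR-192-5p at 3459.7. The colonic markers miR-429 and miR-375 were also sought and were not listed. Of markers of stroma and smooth muscle, 3 were listed and only miR-145-5p, at 1127.8, reached 10. Of markers of blood cells, 3 were listed and 2 reached 10, led by miR-486-5p at 208.8, and of pigment epithelium, 2 were listed and miR-204-5p, at 29.7, reached 10. The liver marker miR-122-5p had a mean of 12.9 and the pluripotency marker miR-302a-5p one of 10.6, and both lay near the bottom of the compared range. Further markers sought for stroma, blood and pluripotent cells were not listed. Of markers of neurons, 2 were listed, miR-9-5p and miR-219-5p, and both reached 10, while miR-124 was not listed. The neuronal miRNA miR-9-5p was abundant at 18196.4, which goes beyond an epithelial set. Its share in any result was not tested.

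Chromosome 8 contributed 17 miRNAs that have no locus elsewhere, 3.92% of those listed. Their summed mean of 134259.4 was 1.71% of the table, and without miR-30d-5p it was 0.0565%. Of the 17, 12 had a mean of at least 10 and 7 of at least 100, with a median of 27.8. A further 3 miRNAs, miR-378d, miR-548i and miR-548d-5p, have hairpins on chromosome 8 and on others, so that their reads cannot be assigned to one.

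The comparison between tables works as follows. Tables were normalised separately, so the means of each other table were multiplied by 1 factor, 0.902 for trisomy 3 and 1.11 for trisomy 18 (-0.15 and 0.16 on the log2 scale), that sets the median ratio to 1 over the miRNAs with a mean of at least 10 in both. Where the controls are the same, a scaled ratio above 1 means that the trisomy 8 libraries lay higher than those of the other trisomic line, because both means hold the same 3 control libraries, and the lines themselves then differ by more than the ratio shows. It does not tell which of the lines left the control level. If control cells hold 2 copies of a template and trisomic ones 3, a level in proportion to copies gives means in the ratio of 5 to 4 (0.32 on the log2 scale), and this fold, or its inverse of 0.8, is counted here as higher or lower. The ratios are descriptions without error or test, and the ratios against the 2 other tables share both the trisomy 8 and the control libraries.

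Of 273 miRNAs compared with the trisomy 3 table, 34 were higher by this fold, or 12.5%, and 33 were lower, or 12.1%. The log2 ratios had a standard deviation over miRNAs of 0.47, and 8 in 10 lay between -0.34 and 0.37. Of 274 compared with the trisomy 18 table, 37 were higher, or 13.5%, and 34 lower, or 12.4%, with a standard deviation of 0.36. This split depends on the scaling, since without it 19 were higher and 62 lower against trisomy 3, and 65 higher and 18 lower against trisomy 18. Scaling by the summed mean, which miR-21-5p dominates, gave 38 and 25, and 68 and 18. Ratios of 2-fold or more either way were few at the main scaling, 8 against trisomy 3 and 4 against trisomy 18.

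The chromosome 8 miRNAs had medians near that of all miRNAs, which the scaling sets to 0. Against trisomy 3, where 10 of the 17 could be compared, 2 were higher and 1 was lower by the 5 to 4 fold, with a median log2 ratio of -0.06. Against trisomy 18, also with 10 compared, 1 was higher and 1 was lower, with a median of -0.04. These counts of 1 or 2 in 10 are too small to set apart from the background shares of all miRNAs. Without scaling the median was -0.21 against trisomy 3 and 0.12 against trisomy 18, and with the summed mean it was -0.02 and 0.14, so its sign against trisomy 18 turns with the scaling. For orientation, the medians of the 23 chromosomes against trisomy 3 ran from -0.30 for chromosome 20 (5 miRNAs) to 0.34 for chromosome 18 (4 miRNAs). In that comparison 4 chromosomes had a lower median than chromosome 8. Against trisomy 18 they ran from -0.47 for chromosome 21 (5 miRNAs) to 0.16 for chromosome 2 (12 miRNAs), with 6 below chromosome 8. Extremes that rest on so few miRNAs are a rough yardstick. A median near 0 in such a ratio is not a measure of the trisomic line against its control.

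**Figure D2:**
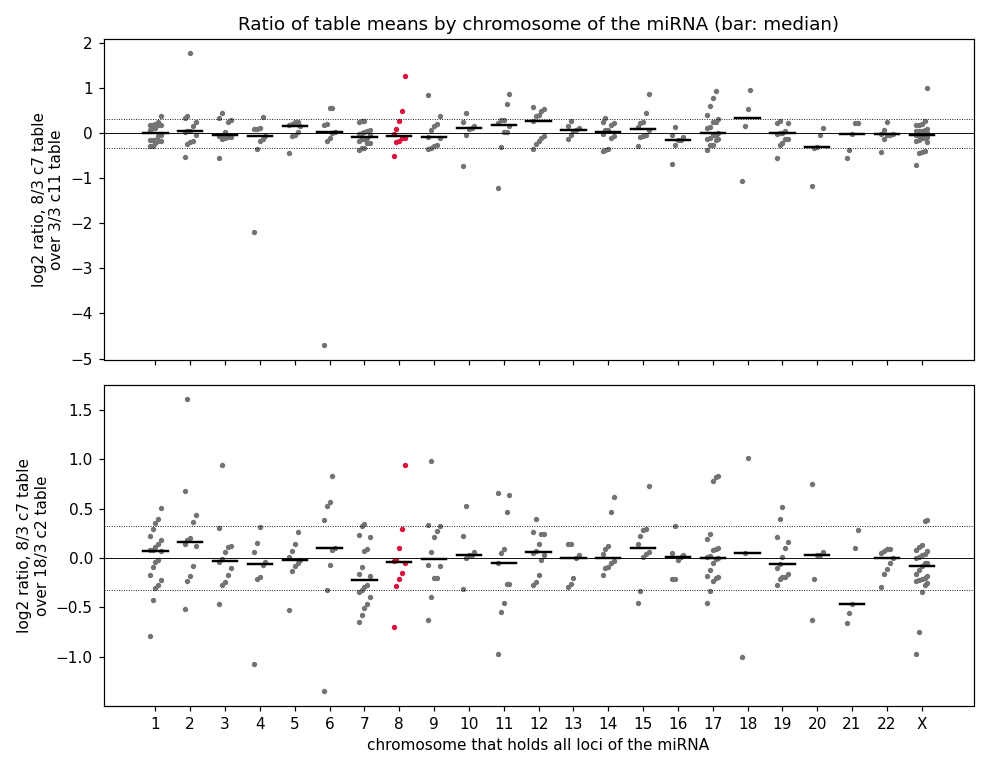
Log2 ratio of the trisomy 8 table mean over the scaled trisomy 3 mean (upper panel) and trisomy 18 mean (lower panel, on a narrower axis), 1 point per miRNA by chromosome, with bars at the medians and dotted lines at ratios of 5 to 4 and 4 to 5. The chromosome 8 points sit around 0, with medians of -0.06 and -0.04, and 1 point lies well above in each panel, miR-4660 at 1.28 in the upper and miR-3148 at 0.94 in the lower.

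The 2 chromosome 8 members of the miR-30 family, which is broadly expressed and linked to epithelial state, form a cluster of 4.43 kb inside an intron of the long non-coding RNA gene ENSG00000289405. miR-30d-5p (chr8:135817119-135817188, minus strand) had a mean of 129828.4 in the trisomy 8 table, beside scaled means of 139265.9 for trisomy 3 and 158037 for trisomy 18. Its log2 ratios were -0.10 and -0.28, both within the limits of 5 to 4 and 4 to 5. It carries nearly the whole signal of the chromosome. miR-30b-5p (chr8:135812763-135812850, minus strand) had 1508.5, beside 1697.8 and 1673.4, and log2 ratios of -0.17 and -0.15. At the main scaling the trisomy 8 mean was thus the lowest of the 3 for both members of the cluster, by less than the counted fold. For miR-30b-5p against trisomy 18 this order depends on the scaling, since the scale factor is 0.16 on the log2 scale.

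miR-151a-5p lies within PTK2, the gene of focal adhesion kinase, by the RefSeq annotation, and was not placed on GRCh37 here. Its mean was 1669.6, beside 1799.7 and 1731.2, and its log2 ratios were -0.11 and -0.05. The near-identical miR-151b, encoded on another chromosome, had a mean of 1662 and the same log2 ratios, so the same reads may have been counted for both. miR-3150a-5p lies within NDUFAF6, an assembly factor of respiratory complex I, and had a mean of 429.1 beside 354.2 and 434.2. Its ratio of 0.28 against trisomy 3 came near the fold without reaching it, and against trisomy 18 it was -0.02. miR-4661-5p (chr8:92217713-92217787, plus strand) sits in an intron of LRRC69 and had 286 beside 269 and 234, with log2 ratios of 0.09 and 0.29. All 3 of these intragenic miRNAs stayed inside the limits against both tables.

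miR-486-5p, an erythroid and muscle miRNA, was placed at chr8:41517959-41518026 on the plus strand, opposite an intron of ANK1. RefSeq lists another hairpin for it that was not placed separately, so a host on the same strand as that hairpin is not covered. The mean of miR-486-5p, 208.8, stood beside 210.8 and 242.1, with log2 ratios of -0.01 and -0.21. miR-4286 (chr8:10524488-10524580, plus strand) lies opposite an intron of RP1L1 and had 174 beside 200 and 282. It was lower than in the trisomy 18 table, at -0.70, and at -0.20 against trisomy 3 it stayed within the limits. miR-3148 (chr8:29814788-29814864, minus strand) has no annotated host. Its mean of 64.1 stood beside 45.2 and 33.4. Among chromosome 8 miRNAs with a ratio in both comparisons, it alone passed the fold upwards against both, at 0.50 and 0.94.

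miR-4660 (chr8:8905955-8906028, plus strand) lies in an intron of ERI1, which encodes an exonuclease that trims histone mRNAs and small RNAs. Its mean was 27.8, beside 11.5 for trisomy 3 and 10.4 for trisomy 18, where the unscaled mean was below 10 and gave no ratio. With no minimum mean, its ratio against trisomy 18 was 2.63. The log2 ratio of 1.28 against trisomy 3 was the highest of the chromosome. Here the shared controls allow a limit, because their level cannot exceed 2 times the smaller of the means they enter, so the trisomic level over the control level is at least the ratio less 1. For miR-4660 the mean in the trisomy 8 libraries was at least 1.43 times that in the control, a limit that lay at 1.19 without scaling and 1.5 with the summed mean. It has no error, and at a mean of 27.8 it rests on few reads.

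The other chromosome 8 miRNAs were scarce. miR-939-5p, in an exon of CPSF1 (chr8:145619364-145619445, minus strand), a subunit of the mRNA cleavage and polyadenylation factor, had a mean of 16.3 beside 23.2 and 16.6. It was lower against trisomy 3, at -0.51, and level with trisomy 18, at -0.03. miR-597, in an intron of TNKS (chr8:9599182-9599278, plus strand), which encodes tankyrase, had 14.8 beside 7.96 for trisomy 18. miR-548az-5p had 12.0 beside 11.2, and a log2 ratio of 0.10 against trisomy 18. Neither of these was listed in the trisomy 3 table, whose lowest mean is 11.9. miR-5708 (chr8:81153624-81153708, plus strand) had a mean of 6.09 beside 4.41 for trisomy 18. miR-4662a-5p had 5.04 beside 2.75, and miR-3622a-5p (chr8:27559190-27559284, minus strand) had 4.48 beside 4.25. These 3 and the next are below the minimum for a ratio. miR-937-5p, in an exon of SCRIB (chr8:144895127-144895212, minus strand), a cell polarity gene, had 2.19 beside 3.67. miR-1322, within PINX1 by RefSeq, had 2.33 and was listed in neither other table. Of the miRNAs encoded partly on chromosome 8, miR-378d had a mean of 801 with log2 ratios of -0.01 and 0.07, miR-548i had 33.9 with 0.17 and 0.21, and miR-548d-5p had 19.4 with -0.08 and -0.22. None of these 3 passed the fold.

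**Figure D3:**
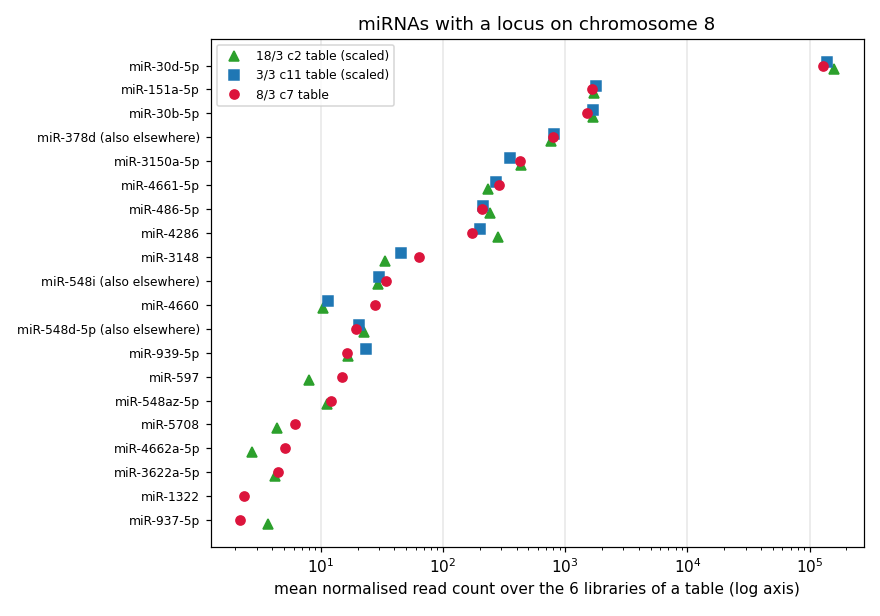
Mean normalised read count (log axis) of the 20 miRNAs with a locus on chromosome 8 in the trisomy 8 table (circles) and, scaled, in the trisomy 3 (squares) and trisomy 18 (triangles) tables. Each is a mean over 6 libraries, of which 3 are controls that by the labels are shared, which is in doubt for trisomy 18. The symbols nearly coincide for miR-30d-5p, miR-151a-5p and miR-30b-5p, and the circle lies to the right for miR-3148 (64.1) and miR-4660 (27.8).

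The means furthest from the other tables lay on other chromosomes. miR-4431 (chr2:52929660-52929753, minus strand, no host) was singled out after its values were seen, since its mean is below 100. It had 72.1 beside 21.1 and 23.6, with log2 ratios of 1.77 and 1.61. From the shared controls, its level in the trisomy 8 libraries was at least 2.41 times that of the control by the trisomy 3 table and at least 2.06 times by the trisomy 18 table, and with the other scalings or no minimum the lowest limit was 2.01 (at a minimum of 100 it was not compared). It was the highest ratio of all against both tables. In the miR-320 family, miR-320c had a mean of 552 beside 282 and 274, with log2 ratios of 0.97 and 1.01. Its limit over control was 0.96 by the trisomy 3 table, which does not place it above control, and 1.02 by the trisomy 18 table, or 0.99 there with no minimum mean. Its loci are both on chromosome 18. miR-320d had 180 beside 108 and 104 (0.74 and 0.79), and miR-320b had 14783.8 beside 12847.5 and 11525 (0.20 and 0.36). The founding member of the family, miR-320a, is known to be made without Drosha. It is not among the 4 listed members, and whether reads of it were counted for them was not tested. Reads counted for the listed members may thus stem from a locus not named here. miR-320c shares its first 19 bases with miR-320b and 18 with miR-320d, so reads of one may have been counted for another, and the 3 ratios are not separate findings.

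Among miRNAs with a mean of at least 100 in either table, others stood higher against both. miR-3614-5p, in an exon of TRIM25, a gene of the antiviral RNA sensing pathway, had 157 beside 81.9 and 88.3, with log2 ratios of 0.94 and 0.83. miR-212-5p had 102 beside 59.3 and 59.0, at 0.78 and 0.78. Its cluster partner miR-132-5p (both at chr17:1953202-1953674, CREB-responsive miRNAs of neurons) had 1529.1 beside 1158.9 and 1502.8, at 0.40 and 0.02, so the cluster members differed. miR-139-5p, in an intron of PDE2A on chromosome 11, a phosphodiesterase of cyclic nucleotides, had 943 beside 606 and 598, at 0.64 and 0.66. miR-222-5p was higher against trisomy 3 with 372.2 beside 186.7, at 1.00, and at 0.13 against trisomy 18, while miR-221-5p from the same host MIR222HG was at -0.03 and 0.03. miR-4521 differed in the same way, at 0.60 and -0.18. Against trisomy 18, miR-4796-5p in ZBTB20 reached 0.94 (0.34 against trisomy 3), miR-3934-5p 0.57 (0.19) and miR-2110 0.53 (0.11).

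miR-30a-5p was the lowest of all these miRNAs, with 1172 beside 30637.5 for trisomy 3 and 2978 for trisomy 18, at -4.71 and -1.35. It lies in an intron of LINC00472 (chr6:72113254-72113324, minus strand). At the main scaling, the same shared-control reasoning turned around gives at least 25.1 times the control level in the trisomy 3 line and at least 1.54 times in the trisomy 18 line. These low ratios thus include a high level in the other lines. Limits of this kind were not computed at the other scalings, and without the factor of 1.11 the one for trisomy 18 would be lower. miR-34c-5p, a p53 target, had 50.7 beside 118 and 99.1 (-1.22 and -0.97), and miR-34a-5p had 1826.4 beside 2226 and 3168.6 (-0.29 and -0.79). For miR-34c-5p the level in the trisomy 3 line was at least 1.32 times the control. miR-452-5p and miR-224-5p, both in exons of GABRE, a GABA receptor subunit gene on the X chromosome, lay low together, at -0.43 and -0.41 against trisomy 3 and at -0.97 and -0.75 against trisomy 18. miR-1296, in an intron of the histone demethylase-like gene JMJD1C, was at -0.73 and -0.31, and miR-28-5p, in an intron of LPP on chromosome 3, was at -0.54 and 0.12. Against trisomy 18 the list also held miR-99a-5p (-0.66), miR-96-5p (-0.65) and miR-455-5p (-0.63), which were at -0.02, -0.18 and -0.11 against trisomy 3.

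**Figure D4:**
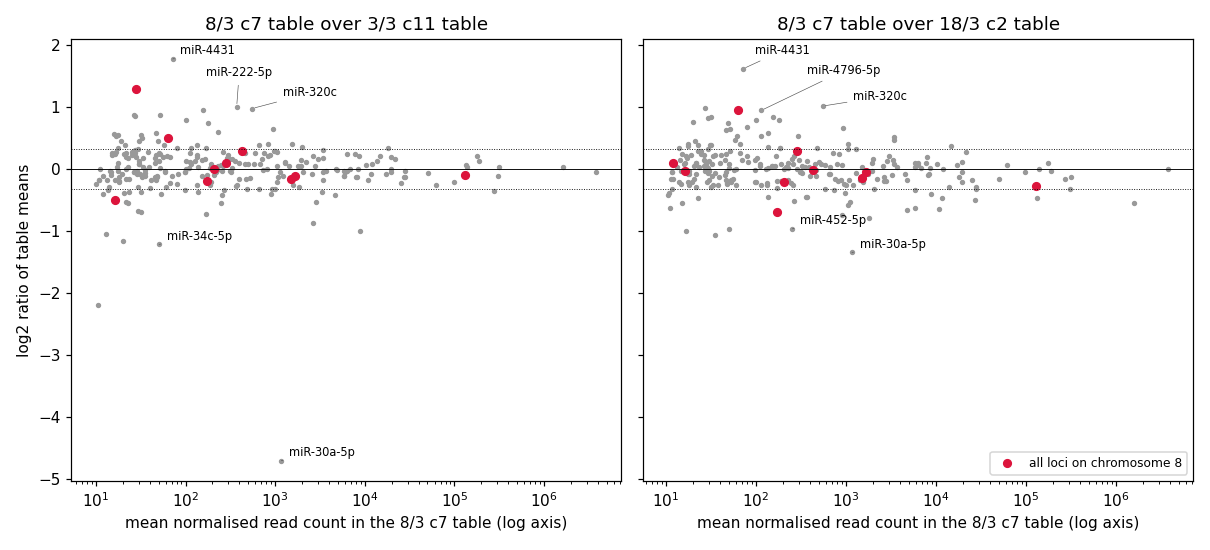
Log2 ratio of the trisomy 8 table mean over the scaled trisomy 3 (left) and trisomy 18 (right) mean against the trisomy 8 mean (log axis), 1 point per miRNA with a mean of at least 10 in both tables, chromosome 8 miRNAs as large points and dotted lines at ratios of 5 to 4 and 4 to 5. The points spread more widely at low means, miR-4431 stands highest at 1.77 and 1.61, and miR-30a-5p lowest at -4.71 and -1.35.

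By family, most medians stayed near 0. The let-7 and miR-98 members had medians of 0.06 and 0.01 against trisomy 3 and trisomy 18. Of the 9, only let-7i-5p, at -0.36 and -0.17, was past the fold, in the first comparison alone (12.1% of all miRNAs were lower there). The 10 compared members of the miR-17-92 cluster and its paralogs, which promote cell cycle entry, were at -0.01 and -0.18, and the miR-374 group was at 0.05 and -0.08, with miR-374b-5p at 0.04 and -0.08. The miR-378 family was at -0.03 and 0.07. The family of miR-192, miR-194 and miR-215, named above for colon epithelium, had medians of 0.30 and 0.40, with 1 of 3 members higher against trisomy 3 (12.5% of all miRNAs) and 2 of 3 against trisomy 18 (13.5%), among them miR-192-5p at 0.30 and 0.47. Without scaling these medians were 0.16 and 0.56. The miR-200 family with miR-141 had medians of 0.11 and -0.23.

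Some families were split between the comparisons. The miR-181 family, known for roles in lymphocyte and vascular cells, had a median of -0.71 against trisomy 3, with 3 of 4 lower (12.1% of all miRNAs), and of 0.01 against trisomy 18, with 1 of 4 lower (12.4%). miR-181a-5p had 8950.7 beside 17974.2 and 11792.2 (-1.01 and -0.40), and miR-181b-5p had 2666.8 beside 4902.6 and 2938.2 (-0.88 and -0.14). miR-181d had 250.1 beside 366.3 and 223.6 (-0.55 and 0.16). miR-181a-5p and miR-181b-5p are both made from 2 clusters, in MIR181A1HG on chromosome 1 and MIR181A2HG on chromosome 9, which cannot be told apart by the mature sequence. The cluster of miR-183, miR-96 and miR-182 (chr7:129410223-129414854), a sensory organ and carcinoma cluster, was at a median of -0.13 against trisomy 3 and of -0.51 against trisomy 18. In the latter 3 of 3 were lower (12.4% of all miRNAs), but they belong to 1 cluster and are not separate findings. Without scaling the median there was -0.36. The family of miR-10, miR-99, miR-100 and miR-125 was at -0.12 and -0.33, with 0 and 4 of 7 lower (12.1% and 12.4% of all miRNAs). Its median against trisomy 18 was -0.17 without scaling and -0.15 with the summed mean, inside the fold. miR-100-5p had 1610224.1 beside 1581515.1 and 2363978.9 (0.03 and -0.55), miR-10a-5p was at -0.12 and -0.33 and miR-10b-5p at -0.23 and -0.18.

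The other families were mixed. miR-15 and miR-16, which restrain the cell cycle, were at 0.01 and -0.09, led by miR-16-5p at a mean of 1442.4. The miR-26 pair was at -0.06 and 0.13, and miR-29, whose 5p arms had means of at most 113.9, at -0.23 and -0.28. miR-148a-5p (-0.21 and -0.58) and miR-148b-5p (0.40 and 0.24) lay on opposite sides of 0. For miR-23, miR-27 and miR-24 the medians were -0.26 and 0.21, and for miR-34 and miR-449 they were -0.07 and -0.33. For miR-28 and miR-151 they were -0.11 and -0.05, and for miR-221 and miR-222 they were 0.48 and 0.08.

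**Figure D5:**
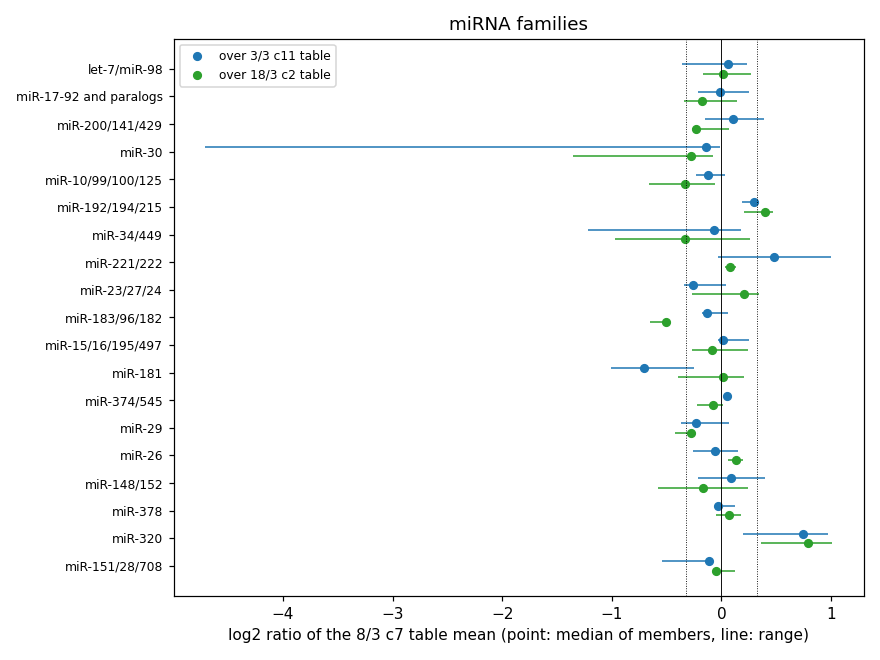
Median (points) and range (lines) of the log2 ratios of the members of 19 miRNA families, trisomy 8 table over the trisomy 3 (upper of each pair) and trisomy 18 (lower of each pair) table, with dotted lines at ratios of 5 to 4 and 4 to 5. The miR-320 medians of 0.74 and 0.79 lie beyond the upper line in both, the miR-181 median of -0.71 beyond the lower in 1, and the long line of the miR-30 family is miR-30a-5p.

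Clusters and hosts were described in the same way. Of 45 clusters with at least 2 listed members within 10 kb, the most abundant were miR-100-5p with its neighbour in MIR100HG (22.9% of the summed mean) and the let-7a, let-7f and let-7d cluster in MIRLET7A1HG (4.95%), with medians of 0.16 and 0.09. The 8-member X-chromosome cluster in CLCN5, a chloride transporter gene, had medians of -0.10 and -0.20, with 0 and 1 of the 7 compared lower (12.1% and 12.4% of all miRNAs). The miR-106b, miR-93 and miR-25 cluster in MCM7, a replication helicase gene, was at -0.11 and -0.32, and its paralog in MIR17HG at 0.06 and -0.08. miR-23b-5p, miR-27b-5p and miR-24-1-5p in AOPEP were at a median of -0.33 against trisomy 3, and with miR-3074-5p at 0.27 against trisomy 18, where miR-3074-5p itself lay lower. The paralogous miR-23a, miR-27a and miR-24-2 cluster was at -0.04 and -0.09, with miR-24-2-5p at 0.04 and 0.10. miR-99b-5p, let-7e-5p and miR-125a-5p in SPACA6 (1.44% of the summed mean) were at -0.13 and -0.06. The miR-449 cluster in CDC20B was at 0.16 and 0.20 over 2 compared members, and the miR-106a cluster on the X chromosome at 0.04 and -0.19, also over 2. The cluster of miR-424, miR-450a, miR-450b and miR-503 in MIR503HG had a summed mean of 117.5 and medians of -0.40 and 0.04. In it 2 of 3 were lower against trisomy 3 (12.1% of all miRNAs) and 1 of 3 was higher against trisomy 18 (13.5%). The 5 members in MEG9 and the 3 in AATK were scarce, with summed means of 41.9 and 26.8, and had 2 and 0 ratios against trisomy 3. Of 387 miRNAs with a single locus, 220 lay in an intron, 84 in an exon and 83 in no gene of the same strand, with median means of 29.3, 42.5 and 13.7. The median log2 ratios of these classes were 0.01, -0.03 and 0.06 against trisomy 3 and 0.04, -0.02 and -0.01 against trisomy 18, all small beside the spread over miRNAs.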

How the data were processed

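Total RNA with small RNAs was sequenced by the authors, 3 biological replicates per line. Adapters were removed with cutadapt, reads were mapped to hg19 and mature miRNAs counted with mirdeep2, and DESeq2 (version not given in the sources used here) divided counts by size factors. Each deposited table holds a signal, the authors' mean normalised count over 6 libraries, and the authors' own comparison (log2 fold change, standard error, statistic, p-value, adjusted p-value), which was not used. The values of single libraries were not used here, so the planned count test was not run, the depth of each library is unknown beyond the nominal one the study states, and values carry no replicate error.

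Ratios of means were computed in Python 3.11.15 with pandas 2.3.3 and numpy 2.4.6, after scaling to a median ratio of 1 at a mean of at least 10 in both tables. The step was tested on simulated means. Loci are from GENCODE 44 on GRCh37, with 40 miRNAs placed by an exact hairpin match. Clusters join loci within 10 kb. Close family members and hairpins with one mature sequence may share reads.

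Named were all chromosome 8 miRNAs, the 15 highest means, the 8 highest and 8 lowest ratios at a mean of at least 100 in either table, and, of the up to 3 leading members of each listed family, those that a result turns on, with clusters of 3 or more members, and miR-10a, 10b, 139, 374b, 21 and 24-2. Members and lists were chosen with earlier results of these data known. Alternatives changed the scaling, minimum mean, fold, arms, and the set and reference for chromosome 8.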

Additional observations from a re-analysis of the deposited data

How the results depend on the processing

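No paired analysis was possible because the tables hold no values of single libraries. Leaving out each replicate, another count normalisation and a count filter were not run for the same reason. Of 57 alternatives, 26 stayed close and 31 moved. A change of sign was counted as moved and not set apart, as for the chromosome 8 median against trisomy 18. Where a cause is not part of the alternative itself, the cause was not tested. Without scaling, 19 miRNAs were higher and 62 lower against trisomy 3, and 65 and 18 against trisomy 18. The chromosome 8 median was then -0.21 and 0.12, with 2 chromosome 8 miRNAs lower against trisomy 3 and 2 higher against trisomy 18, and 5 miRNAs had a limit over control above 1 by trisomy 18. Scaling by the summed mean gave 68 higher, 18 lower, a chromosome 8 median of 0.14, 2 chromosome 8 miRNAs higher and 7 limits above 1 against trisomy 18, and 4 limits against trisomy 3. At a minimum mean of 100, with fewer miRNAs, 13 were higher and 17 lower against trisomy 3, with 0 chromosome 8 miRNAs past the fold either way and 0 limits above 1, and 13 higher and 20 lower against trisomy 18, with 1 limit. With no minimum, which adds scarce miRNAs, 69 were higher and 65 lower against trisomy 18, among them 5 and 2 of chromosome 8. At a fold of 1.5, 12 and 10 passed against trisomy 3 and 16 and 12 against trisomy 18. Scarce miRNAs are the most limited, since depth is unknown and any of the 6 libraries may carry a mean.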

Other observations

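The trisomy 8 table listed 34 miRNAs that neither other table did, with means between 2.14 and 5.33, of which 1, miR-1322, lies on chromosome 8. All 279 miRNAs of the trisomy 3 table were also in the other 2. miR-138-5p, at a mean of 4.58 in the trisomy 8 table and 5.12 in the scaled trisomy 18 table, stood at 190 in the scaled trisomy 3 table. miR-302a-5p stood at 10.6, 6.39 and 48.8 in the same order. Both were picked out after their values were seen.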
